A study of Mus musculus with 8 samples.

Results

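The genes of the MHC class I pathway and the immunoproteasome were followed here across tissue-resident leukocytes of the mouse brain, pia and dura after stroke. The list was set by name and holds 10 of the 30406 genes that all libraries share, and all 10 were measured. It comprises the heavy chains H2-K1, H2-D1 and H2-T23, the light chain B2m, the peptide transporter genes Tap1 and Tap2, the loading factor Tapbp, and the immunoproteasome subunits Psmb8, Psmb9 and Psmb10. MHC class I molecules present peptides from inside the cell to CD8 T cells and are sensed by NK cells. The proteasome cuts proteins into peptides, TAP carries these into the endoplasmic reticulum, and tapasin (Tapbp) helps to load them onto a heavy chain bound to B2m. Interferon gamma is known to raise the whole pathway, in part by exchanging the constitutive catalytic subunits of the proteasome for the inducible ones, and resting microglia are known for low class I levels.

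The data were single-cell RNA-seq counts of CD45+ leukocytes that an intravenously injected CD45 antibody had not stained, from adult male C57BL/6 mice. Stroke was made by transient middle cerebral artery occlusion (MCAO). Brain parenchyma had 1 control library, 2 libraries from 24 h after MCAO (replicates 1 and 2) and 1 from 72 h, while pia and dura each had 1 control library and 1 from 24 h. Control stands for naive mice in the study's methods and for sham-operated mice in a figure legend, and which of them was used is not settled here. The study's reporting summary gives a pooled number of experiments per compartment but not the mice behind each library, so libraries were the replicates, and p-values measure the spread between libraries only.

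Libraries held between 6591898 and 20754181 UMIs (unique molecular identifiers, 1 per captured transcript), and the authors' annotation placed 32457 of 36854 cell barcodes in 21 clusters. Median depth per annotated cell was between 1071.5 and 2501.0 UMIs, and pairs of libraries shared between 0 and 43 barcodes. UMIs were summed per library and cluster and are given as counts per 1000000 UMIs (CPM) for sums of at least 30 cells. Such a sum cannot tell fewer cells with a transcript from less RNA per cell. Since the reads tag transcript ends, levels were compared between cells and libraries and not between genes.

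The clusters carried the markers of their names in most cases: Tmem119 was highest in Micro_1 at 2036 CPM, Cd79a in B cells (Bc) at 1999 CPM and Trdc in gamma-delta T cells (gdTc) at 3994 CPM. The granulocyte clusters were unlike each other. S100a8 was at 113479.8 CPM in Granulo_2, and proliferating cells (4702 CPM), not Granulo_1, came next. Hp was at 2575 CPM in Granulo_2 and 761 CPM in Granulo_1. The macrophage gene Lyz2 was highest in Granulo_1 (31963 CPM). In the brain, however, the clusters of CNS-associated macrophages (CAM) held the microglial marker Tmem119. In CAM_1 it stood at 3085 CPM in control brain, 1344 and 291 CPM in the 24 h replicates of brain and 194 CPM at 72 h, against 25.9 to 51.3 CPM in pia and dura. Lyz2, a macrophage gene, showed the opposite order in CAM_1, with 314 to 8129 CPM in brain and 12181 to 17997 CPM in the meninges. Of markers of cells that the sort should lack, Cldn5, Aqp4, Snap25 and Col1a1 did not exceed 13.7 CPM in any library, and Hbb-bs of erythrocytes reached 332 CPM.

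Replicate 2 of brain at 24 h and the brain library of 72 h stood apart. Their files list 31053 genes, against 32285 in the other 6, and were made with different kit versions (2 and 3). Of 2985 genes with a mean of at least 50 CPM, 199 (6.67%) lay below all 6 other libraries in both of them, in each of the 4 clusters with enough cells in every library (T cells (Tc), Macro_2, CAM_1 and CAM_2). H2-D1 and B2m were among these genes. Between the brain replicates at 24 h, B2m was lower in replicate 2 in 10 of 10 clusters, by a median of -1.46 on the log2 scale, and H2-D1 in 10 of 10, by -1.44. Psmb8 (-1.29) and Tap2 (-0.88) were also lower in all 10, whereas H2-K1 was higher in 9 of 10, with a median of 0.47. The T cell gene Cd3g moved with this, at 642 and 639 CPM in T cells of these 2 libraries and 1521 to 2357 CPM in the other 6, as did ribosomal protein genes, at 26.0% and 28.1% of T cell UMIs against 15.4% to 19.4%. Their part in the results was not tested, and the tests, the class ratios and the cluster means that lead the text are also given without them.

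On GRCm38, 8 of the members lie on chromosome 17, in the MHC region, and B2m (chr2:122147686-122153083) and Psmb10 (chr8:105935735-105938444) lie elsewhere. H2-K1 lies at chr17:33996017-34000347, H2-D1 at chr17:35262730-35267499, H2-T23 at chr17:36029773-36032855 and Tapbp at chr17:33915899-33929292. The remaining members form a compact block of Psmb9 (chr17:34181987-34187764), Tap1 (chr17:34187553-34197225), Psmb8 (chr17:34197721-34201454) and Tap2 (chr17:34203527-34216321). Psmb9 and Tap1 are transcribed away from each other and overlap at their starts. Of the 50-base windows in the last 500 bases of the annotated transcript, 38.1% of those of H2-T23, 9.53% of those of H2-D1 and 0.443% of those of H2-K1 also occur in another gene, so counts of H2-T23 and, less, H2-D1 may be split with such copies. The other 7 members had no shared window.

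RefSeq promoters on GRCm38.p6 (250 bases before to 50 bases after the start) were found for 9 of the 10 members, all but Tap2. Those of the 3 heavy chains, B2m and Psmb9 are shown because these genes carry the differences between cell types and libraries described below. Capitals mark matches, on either strand, to the interferon-stimulated response element (ISRE: GAAA, any 2 bases, GAAA), a related element for interferon regulatory factors (IRF element: AGTTTC, any 2 bases, TT), the CCAAT box and TGACG, a part of the cAMP response element. No 2 of these motifs share a match.
H2-K1 (chr17:34000284-34000583, minus strand): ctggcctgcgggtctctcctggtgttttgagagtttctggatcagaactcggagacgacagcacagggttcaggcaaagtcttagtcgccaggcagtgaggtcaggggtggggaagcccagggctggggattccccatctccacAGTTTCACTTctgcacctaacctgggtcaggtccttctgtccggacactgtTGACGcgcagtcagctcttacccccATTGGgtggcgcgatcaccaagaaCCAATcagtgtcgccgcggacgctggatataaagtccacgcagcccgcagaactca
H2-D1 (chr17:35262844-35263143, plus strand): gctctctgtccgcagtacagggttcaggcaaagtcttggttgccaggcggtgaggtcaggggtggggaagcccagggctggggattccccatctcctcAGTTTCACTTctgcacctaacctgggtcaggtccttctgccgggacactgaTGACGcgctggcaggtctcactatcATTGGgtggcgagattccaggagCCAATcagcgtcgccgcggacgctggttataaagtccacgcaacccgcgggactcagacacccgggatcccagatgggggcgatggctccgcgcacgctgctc
B2m (chr2:122147437-122147736, plus strand): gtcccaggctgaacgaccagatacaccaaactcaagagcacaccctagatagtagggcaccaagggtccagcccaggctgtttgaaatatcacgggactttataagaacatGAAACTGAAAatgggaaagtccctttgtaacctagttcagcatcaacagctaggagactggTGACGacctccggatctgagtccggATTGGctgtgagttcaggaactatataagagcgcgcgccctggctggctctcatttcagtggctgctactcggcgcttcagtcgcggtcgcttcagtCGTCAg
H2-T23 (chr17:36032652-36032951, minus strand): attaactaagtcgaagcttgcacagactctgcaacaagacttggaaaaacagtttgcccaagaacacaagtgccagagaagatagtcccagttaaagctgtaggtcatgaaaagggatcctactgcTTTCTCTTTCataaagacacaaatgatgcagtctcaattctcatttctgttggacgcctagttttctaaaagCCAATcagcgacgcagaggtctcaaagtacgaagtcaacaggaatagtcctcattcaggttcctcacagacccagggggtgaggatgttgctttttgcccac
Psmb9 (chr17:34187281-34187580, minus strand): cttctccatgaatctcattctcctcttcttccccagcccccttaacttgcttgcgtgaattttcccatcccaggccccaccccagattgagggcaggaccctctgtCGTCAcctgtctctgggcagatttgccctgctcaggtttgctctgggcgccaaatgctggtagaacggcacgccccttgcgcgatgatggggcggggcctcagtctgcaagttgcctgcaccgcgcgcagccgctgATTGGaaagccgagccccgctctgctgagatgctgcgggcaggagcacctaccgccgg
The ISRE was in the promoters of B2m and H2-T23, and in 3.44% of 32851 promoters of this length. The IRF element, a motif added after the promoters had been read, was in those of H2-K1 and H2-D1 and in 1.72% of all. CCAAT was in 7 of the 9 members with a promoter entry against 37.4% of all promoters, and TGACG in 5 of the 9 against 20.8%. The promoters of Psmb9 and Tap1 overlap on opposite strands, and their CCAAT and TGACG matches are the same sites, counted for both members. The gamma-activated site TTCNNNGAA was in Psmb8 alone among the members, and in 8.30% of all promoters. The ISRE begins 139 bases before the start of B2m and 124 before that of H2-T23, and the IRF element 152 bases before that of H2-D1 and 106 before that of H2-K1. RefSeq holds another start for H2-K1, 14 bases upstream, that is not shown.

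The classical heavy chain H2-K1 was highest in lymphoid clusters and lowest in Granulo_2, 1 of the granulocyte clusters. In T cells it stood at 2481 CPM in control brain, 2414 and 2818 CPM in the brain replicates at 24 h, 3066 CPM in brain at 72 h, 2715 CPM in control pia, 2124 CPM in pia at 24 h, 2692 CPM in control dura and 2138 CPM in dura at 24 h. The lowest of these values was still above every value of CAM_1, which lay between 459.6 and 1128 CPM. Over libraries, the mean was 2971 ± 453 CPM in NK cells (SD, n = 6), 2556 ± 329 CPM in T cells (n = 8), 2091 ± 285 CPM in type 2 innate lymphoid cells (ILC2, n = 5) and 2032 ± 428 CPM in gdTc (n = 4). B cells were unlike the other lymphoid clusters, with 834 ± 320.2 CPM (n = 6), close to the dendritic cells of mDC1 at 885 ± 358 CPM (n = 6). Granulo_2 had 227 ± 86.6 CPM (n = 6). In the libraries of the longer gene list alone, the mean of H2-K1 was 2769 ± 385 CPM in NK cells (n = 4), 2427 ± 257 CPM in T cells (n = 6), 695 ± 146 CPM in CAM_1 (n = 6) and 189 ± 61.0 CPM in Granulo_2 (n = 4).

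H2-D1, the other classical heavy chain, and B2m, the light chain that every class I molecule needs, had the same clusters at the top. Their spread between libraries was wide. For H2-D1 in NK and T cells it was much narrower without the libraries that stand apart, whereas in Micro_1 it stayed wide. H2-D1 had 4973 ± 2493 CPM in NK cells (n = 6) and 4381 ± 1829 CPM in T cells (n = 8), and in the libraries of the longer gene list alone 6567 ± 446 CPM (n = 4) and 5352 ± 405 CPM (n = 6). Microglia of the Micro_1 cluster had 1419 ± 786 CPM of H2-D1 (n = 7), and 1716 ± 734 CPM in the longer list alone (n = 5). B2m had 4793 ± 2267 CPM in T cells (n = 8), 2306 ± 996 CPM in CAM_1 (n = 8), 2297 ± 1042 CPM in Micro_1 (n = 7) and 1005 ± 444 CPM in Granulo_2 (n = 6). In the longer list alone these means were 5848 ± 1357 CPM (n = 6), 2726 ± 678 CPM (n = 6), 2782 ± 701 CPM (n = 5) and 1260.1 ± 259 CPM (n = 4), in the same clusters.

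The nonclassical heavy chain H2-T23 (Qa-1, a ligand of NK cell receptors) was low and, in fold, varied less between clusters than H2-K1. The mean of H2-T23 was 132 ± 33.7 CPM in gdTc (n = 4), 130.5 ± 44.3 CPM in mDC1 (n = 6), 123 ± 27.8 CPM in T cells (n = 8) and 31.8 ± 11.9 CPM in Granulo_2 (n = 6). When clusters were ordered by their ratio to the macrophage clusters of the same library, none of the 19 pairs of neighbours in the order of H2-T23 were further apart than the larger of their SDs. For the other members, 1 to 3 of 19 neighbouring pairs were, among them T cells and ILC2 for H2-K1, and gdTc and CAM_2 for B2m. The orders therefore separate the ends and not the steps between.

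The genes that supply and load peptides had another order, with dendritic cells at or near the top. Tap1 in mDC1 stood at 120.2 CPM in brain at 24 h (replicate 2), 121 CPM in brain at 72 h, 117 CPM in control pia, 140.3 CPM in pia at 24 h, 168 CPM in control dura and 122 CPM in dura at 24 h. These values lay above all 8 of CAM_1, which were between 17.5 and 73.1 CPM. The mean of Tap1 was 131 ± 19.5 CPM in mDC1 (n = 6), 124 ± 40.1 CPM in T cells (n = 8), 101 ± 17.4 CPM in mDC2 (n = 6) and 16.3 ± 11.7 CPM in Granulo_2 (n = 6, or 9.67 ± 7.05 CPM in the 4 libraries of the longer list). Tap2, its partner in the transporter, was led by T cells at 132 ± 40.1 CPM (n = 8) and gdTc at 119.5 ± 20.3 CPM (n = 4), with 151 ± 24.9 CPM (n = 6) and 129 ± 8.54 CPM (n = 3) in the longer list alone. Tapbp spanned a narrower range, from 105 ± 34.9 CPM in Granulo_2 (n = 6) to 301 ± 75.2 CPM in mDC1 (n = 6) and 389 ± 159 CPM in gdTc (n = 4).

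The immunoproteasome subunits were highest in mDC1 and T cells. Psmb8, the inducible counterpart of Psmb5, had 837 ± 303 CPM in mDC1 (n = 6), 724 ± 253 CPM in T cells (n = 8) and 650.3 ± 180.0 CPM in mDC2 (n = 6). It had 259 ± 87.5 CPM in CAM_1 (n = 8), 79.3 ± 25.8 CPM in stress_Micro (n = 2) and 82.5 ± 31.4 CPM in mast cells (n = 2). Both values of stress_Micro (61.1 and 97.5 CPM) are of the shorter gene list, where Micro_2 had 81.7 and 92.9 CPM. For stress_Micro, cluster and library can therefore not be told apart. In the longer list alone Psmb8 had 1004 ± 206 CPM in mDC1 (n = 4), 816 ± 222 CPM in T cells (n = 6) and 291 ± 52.2 CPM in CAM_1 (n = 6). Psmb9, the counterpart of Psmb6, had 237 ± 93.1 CPM in mDC1 (n = 6) and 152 ± 28.9 CPM in T cells (n = 8). In stroke-associated myeloid cells (SAMC), a cluster that the study named for its appearance after stroke, Psmb9 had 30.0 ± 17.7 CPM (n = 4). Psmb10, the counterpart of Psmb7, differed from both in that Granulo_1 (188 ± 41.1 CPM, n = 7) stood beside T cells (193 ± 63.4 CPM, n = 8) and NK cells (183 ± 38.6 CPM, n = 6). In Granulo_2 Psmb10 was at 20.4 ± 14.1 CPM (n = 6).

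Macro_1 reached 30 cells in brain at 72 h alone, with 73 cells. There Tap1 was at 298 CPM (95% exact Poisson interval 222 to 392, for counting error only), Tapbp at 503 CPM (402 to 621), Psmb10 at 357 CPM (273 to 458) and H2-K1 at 2351 CPM. Tap2 was at 11.7 CPM (1.42 to 42.3), from 2 UMIs. This library is of the shorter gene list, and its macrophages as a class also had more Tap1 (71.1 CPM) and less Tap2 (24.5 CPM) than those of the longer list (36.0 to 50.5 and 57.3 to 92.8 CPM), so cluster and library cannot be told apart here.

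**Figure D1:**
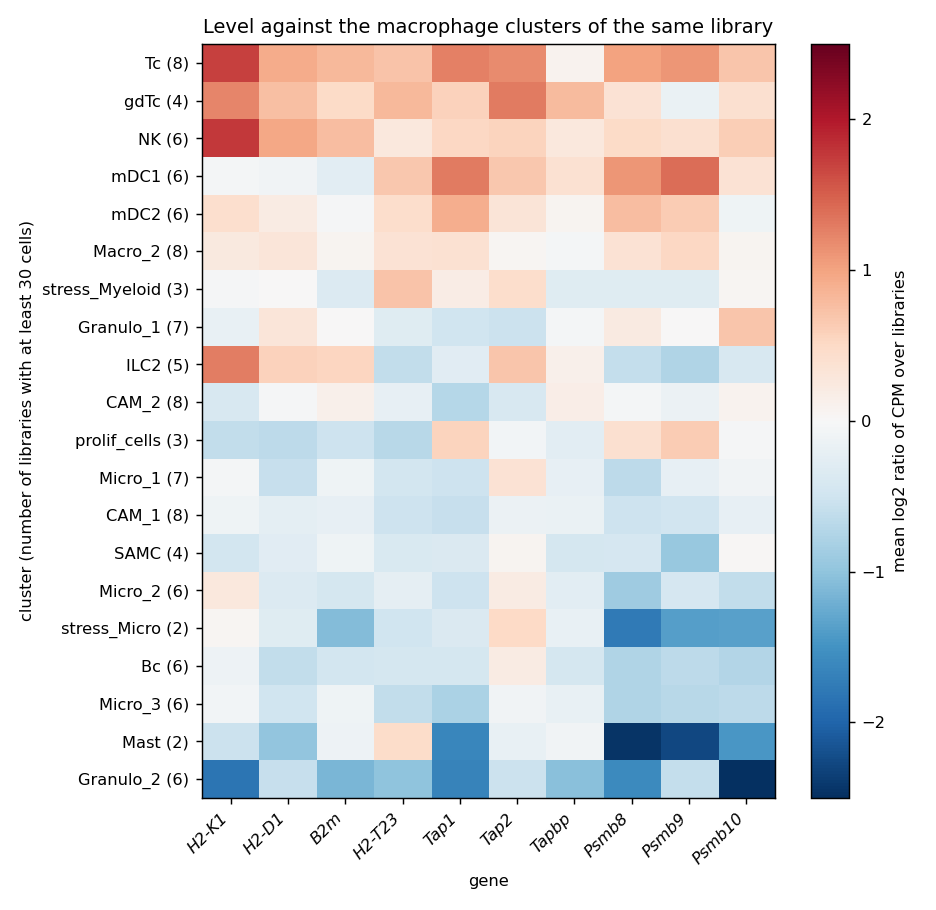
Mean log2 ratio of each member's CPM in a cluster to its CPM in the macrophage clusters of the same library, for clusters (rows) with at least 2 libraries of 30 cells or more, the number of libraries in brackets. H2-K1 has its highest ratios in NK cells (1.77) and T cells (1.71), Psmb9 in mDC1 (1.40), and Granulo_2 has the lowest ratio for Psmb10 (-2.51).

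Cell classes were then compared within each library, which takes out only those differences between libraries that the classes share. The log2 ratio of H2-D1 in lymphoid cells to microglia was 2.29 in control brain and 2.16 in replicate 1 at 24 h. It was 1.08 in replicate 2 and 0.89 in brain at 72 h. The clusters were drawn from the same counts, so these ratios are descriptions without a test. Lymphoid cells had 2229 CPM of H2-K1 in control brain, 2055 and 2304 CPM in the brain replicates at 24 h, 2744 CPM in brain at 72 h, 2352 CPM in control pia, 1928 CPM in pia at 24 h, 2078 CPM in control dura and 1575 CPM in dura at 24 h. Microglia of the same libraries had 681, 723, 932, 1239, 821, 587, 927 and 517 CPM. Every lymphoid value exceeded every microglial one, and the mean log2 ratio was 1.46 ± 0.23 (SD, n = 8 libraries).

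Against microglia, the median of the members was 1.00 ± 0.38 higher in lymphoid cells on the log2 scale (n = 8), where the median of all 2985 genes was 0.14. In the libraries of the longer gene list alone it was 0.98 ± 0.44 (n = 6). H2-K1, H2-D1 (1.31 ± 0.63), B2m (0.84 ± 0.42), Psmb8 (1.31 ± 0.72) and Psmb10 (0.85 ± 0.51) were higher in 8 of 8 libraries. These are 5 of 10 members, against 22.6% of all genes. Tap1 (1.16 ± 1.11), Tap2 and H2-T23 were higher in 7 of 8, Psmb9 in 6 and Tapbp in 5. B cells, a part of the lymphoid class, were not above Micro_1 by their mean ratio to macrophages in the 5 genes higher in every library. Their mean log2 ratio to macrophages was -0.13 for H2-K1, -0.61 for H2-D1, -0.46 for B2m, -0.76 for Psmb8 and -0.74 for Psmb10 (n = 6). In Micro_1 these ratios were -0.05, -0.57, -0.11, -0.65 and -0.09 (n = 7). The libraries behind these means are not the same. Within brain at 24 h (replicate 2), B cells were above Micro_1 in all 5 genes, such as H2-K1 (1104 against 959.6 CPM) and Psmb8 (252 against 73.5 CPM). Within brain at 72 h they were above it in all but B2m (911 against 1553 CPM). Against macrophages, H2-K1 (1.45 ± 0.36), H2-D1, B2m and Tap2 (0.88 ± 0.27) were higher in lymphoid cells in 8 of 8 libraries, 4 members against 24.2% of all genes, and the median of the members was 0.71 ± 0.37 (n = 8), or 0.74 ± 0.43 in the longer list alone (n = 6).

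Macrophages exceeded microglia in 8 of 8 libraries for H2-D1 alone, by 0.47 ± 0.20 on the log2 scale, which is 1 of 10 members where 5.66% of all genes did so. The median of the members was 0.30 ± 0.29 (n = 8), or 0.26 ± 0.33 in the longer list alone (n = 6). In the meninges the microglial clusters held 51 to 330 cells, and in brain the CAM clusters carried Tmem119 as above, so the classes were not clean of each other in every library.

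In dendritic cells 6 of the 10 members exceeded macrophages in every library, led by Tap1, Psmb9 and Psmb8. Psmb8 had 1297 and 458 CPM in dendritic cells of the brain replicates at 24 h, 513 CPM in brain at 72 h, 631 CPM in control pia, 898 CPM in pia at 24 h, 885 CPM in control dura and 1011 CPM in dura at 24 h. Macrophages of these libraries had 257, 235, 303, 382, 424, 475 and 452 CPM, lower in each. The mean log2 ratio was 1.13 ± 0.55 for Psmb8, 1.20 ± 0.50 for Psmb9, 1.22 ± 0.49 for Tap1, 0.65 ± 0.33 for H2-T23, 0.53 ± 0.31 for Tap2 and 0.25 ± 0.20 for Tapbp (n = 7 libraries, higher in 7 of 7 for each). These are 6 of 10 members, against 17.7% of all genes. With cells thinned to 1000 UMIs the ratio was 0.25 for H2-T23 and 0.15 for Tap2. B2m was not among them (-0.11 ± 0.13, higher in 2 of 7), nor were H2-K1 (0.30 ± 0.30, 6 of 7), H2-D1 (0.23 ± 0.44, 5 of 7) and the third immunoproteasome subunit, Psmb10 (0.30 ± 0.46, 6 of 7). The median of the members was 0.49 ± 0.27 (n = 7), or 0.53 ± 0.32 in the longer list alone (n = 5).

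In granulocytes, Tap2 (-0.63 ± 0.47) and Tapbp (-0.43 ± 0.28) were lower than in macrophages in 7 of 7 libraries, which is 2 of 10 members against 11.8% of all genes. H2-D1 (-0.04 ± 0.63) and Psmb10 (0.04 ± 0.49) were higher in 5 of 7 libraries and lower in both of dura. The median of the members was -0.37 ± 0.48 (n = 7) and lay within its SD of 0, also in the longer list alone (-0.37 ± 0.57, n = 5). The granulocyte clusters differed from each other, since H2-K1 was at 704 ± 183 CPM in Granulo_1 (n = 7) and 227 ± 86.6 CPM in Granulo_2 (n = 6).

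SAMC had at least 30 cells in 4 libraries, those of brain after MCAO and pia at 24 h. H2-K1 in SAMC was at 316 and 657 CPM in the brain replicates at 24 h, 908 CPM in brain at 72 h and 425 CPM in pia at 24 h, and macrophages of these libraries had 439.5, 858, 1171 and 639 CPM. Psmb9 was at 18.4, 12.3, 39.1 and 50.2 CPM in SAMC and 27.1, 45.7, 81.8 and 75.0 CPM in macrophages. These SAMC values of Psmb9 rest on 17, 3, 90 and 11 UMIs. Only in brain at 72 h were the counting intervals of the classes apart (31.4 to 48.0 CPM in SAMC, 74.1 to 90.2 CPM in macrophages). H2-K1 and Psmb9 were thus lower in SAMC in each library, by -0.45 ± 0.10 and -0.95 ± 0.55 on the log2 scale (n = 4). Tapbp (-0.43 ± 0.32) and Psmb8 (-0.42 ± 0.32) were also lower in 4 of 4, which makes 4 members against 16.7% of all genes. In the longer list alone (n = 2) the mean was -0.53 for H2-K1, -0.52 for Psmb9, -0.28 for Tapbp and -0.17 for Psmb8. Against microglia, H2-K1 (-0.65 ± 0.36) and Tap2 (-0.40 ± 0.24) were lower in 4 of 4 libraries, 2 members against 25.0% of all genes, and B2m (0.18 ± 0.21, lowest 0.01) was higher in 4 of 4, 1 member against 27.1% of all genes. Both shares of the members against microglia are below those of all genes.

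**Figure D2:**
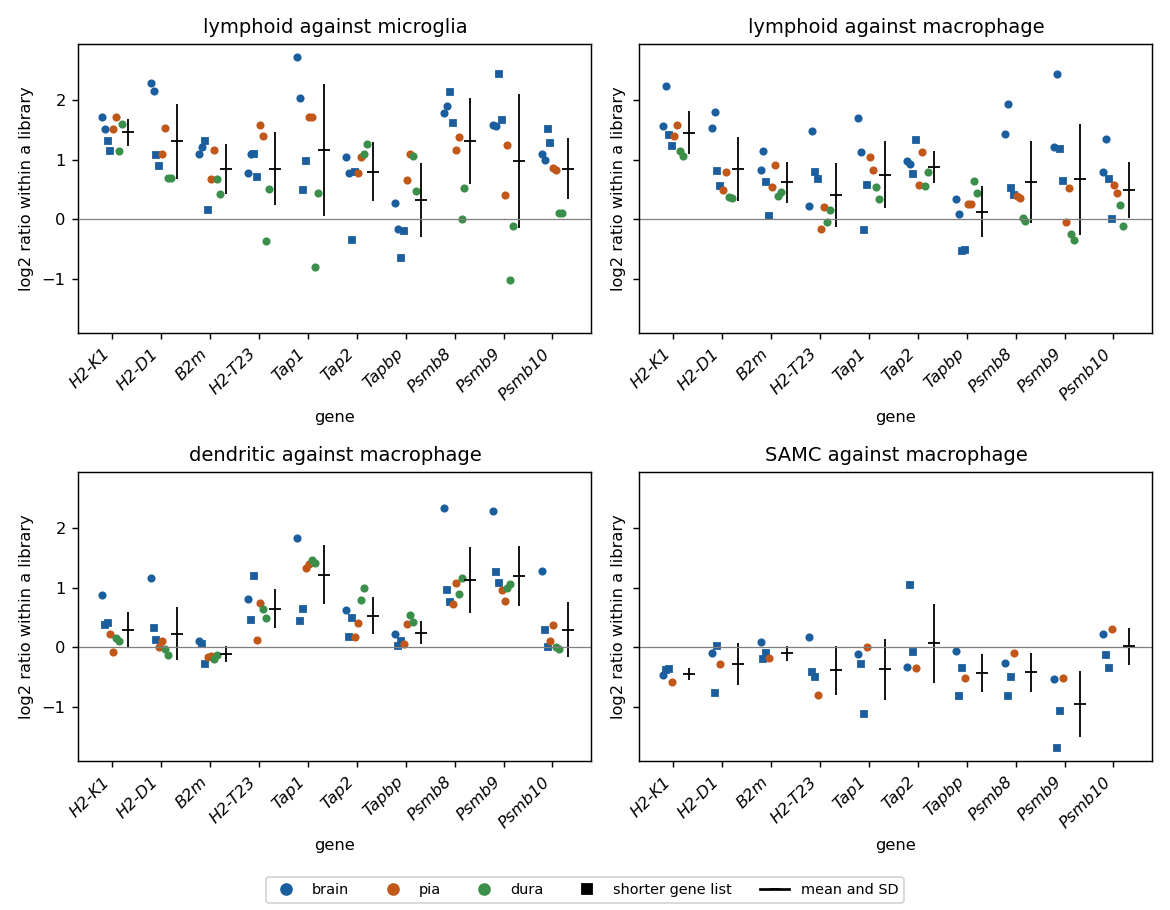
Log2 ratio of a member's CPM in lymphoid cells to microglia, in lymphoid cells to macrophages, in dendritic cells to macrophages and in SAMC to macrophages, 1 point per library (squares for the libraries of the shorter gene list), with the mean and SD beside the points. All 8 points of H2-K1 against microglia lie above 0, and all 4 of Psmb9 in SAMC lie below it.

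To set the inducible subunits against the constitutive ones, the log2 ratio of their UMIs was taken within each library and cluster. A ratio is compared between clusters and not between pairs of genes. For Psmb8 over Psmb5 it was 2.75 ± 0.57 in mDC2 (n = 6), 2.54 ± 0.48 in T cells (n = 8) and 2.48 ± 0.74 in mDC1 (n = 6), against 0.55 ± 0.70 in SAMC (n = 4) and 0.51 ± 0.80 in Granulo_2 (n = 6). For Psmb9 over Psmb6, SAMC were lowest at -4.06 ± 1.03 (n = 4, from -5.49 to -3.15). The highest ratio was that of mDC1 at -0.42 ± 0.69 (n = 6, from -1.63 to 0.26). These clusters, the ends of the order, did not overlap, and the ratios of SAMC rest on the few Psmb9 UMIs given above. The range of SAMC did overlap those of other clusters, such as CAM_2 (lowest -4.89), CAM_1 (-4.73), Micro_3 (-4.15) and B cells (-5.49). Among clusters, SAMC also had the most Psmb6, with a mean of 509 CPM. For Psmb10 over Psmb7, NK cells (1.51 ± 0.45, n = 6) and T cells (1.44 ± 0.79, n = 8) led, and Granulo_2 was lowest at -1.36 ± 1.05 (n = 6). In the longer list alone, Psmb8 over Psmb5 was 3.10 ± 0.12 in mDC2 (n = 4) and 1.05 ± 0.36 in SAMC (n = 2), Psmb9 over Psmb6 was -0.49 ± 0.83 in mDC1 (n = 4) and -4.50 ± 1.40 in SAMC (n = 2), and Psmb10 over Psmb7 was 1.54 ± 0.89 in T cells (n = 6) and -1.79 ± 1.00 in Granulo_2 (n = 4).

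**Figure D3:**
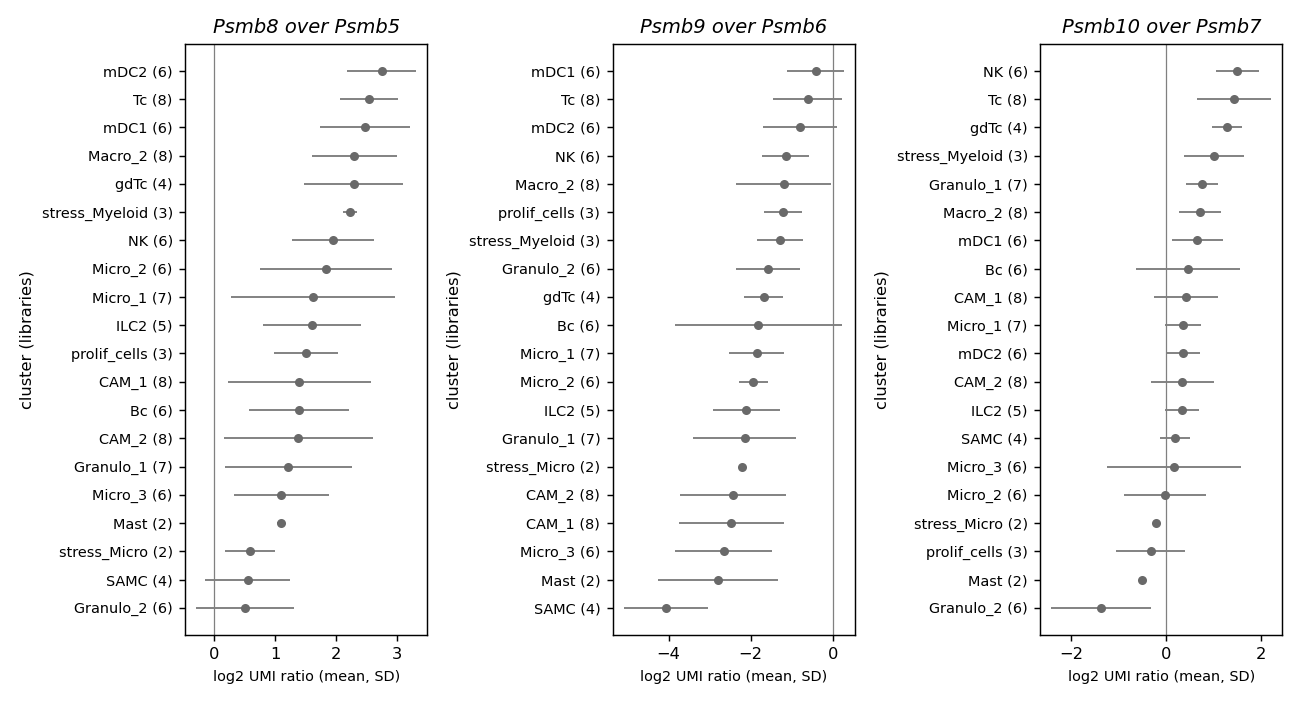
Log2 ratio of UMIs of each immunoproteasome subunit to those of its constitutive counterpart, with mean and SD over libraries (their number in brackets) for each cluster with at least 2 libraries. SAMC have the lowest ratio of Psmb9 to Psmb6 (-4.06) and Granulo_2 the lowest ratio of Psmb10 to Psmb7 (-1.36).

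The main question of the design, whether stroke changed these genes, was tested at 24 h against control in the clusters with at least 30 cells in all 7 control and 24 h libraries (T cells, Macro_2, CAM_1 and CAM_2). B2m in T cells stood at 7343 CPM in control brain and at 5097 and 1705 CPM in the brain replicates at 24 h, at 7274 CPM in control pia and 4899 CPM in pia at 24 h, and at 6407 CPM in control dura and 4070.1 CPM in dura at 24 h. In Macro_2, control brain had 3666 CPM of B2m and the brain replicates at 24 h 2356 and 988 CPM, pia 4598 CPM in control and 2578 CPM at 24 h, and dura 4282 CPM in control and 2562 CPM at 24 h. Each 24 h library lay below the control library of its tissue, and all 4 lay below all 3 controls, in both clusters. The same held in CAM_1, with 3041, 3659.6 and 3229.8 CPM in control brain, pia and dura and 1976, 595, 2165 and 2282 CPM at 24 h (brain replicates 1 and 2, pia, dura). No share of all genes ordered in this way is given here to set beside B2m. Brain replicate 2 was low in B2m in 10 of 10 clusters, as above.

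In the fit of all 7 libraries (edgeR's quasi-likelihood test with tissue as a covariate and Benjamini-Hochberg adjustment), no member passed an adjusted p of 0.05 in any of the 4 clusters. The change of B2m was -0.78 ± 0.40 in T cells, -0.95 ± 0.44 in Macro_2, -0.94 ± 0.50 in CAM_1 and -1.02 ± 0.48 in CAM_2 on the log2 scale (estimate and SE), with adjusted p of 0.998, 1.00, 0.829 and 0.602. Few genes of any kind passed: 0 of 4712 in T cells (0%), 0 of 8245 in Macro_2 (0%), 0 of 7537 in CAM_1 (0%) and 1 of 4837 in CAM_2 (0.0207%). At an unadjusted p under 0.05 these numbers were 84, 332, 445 and 402 genes, of which 1, 2, 1 and 1 were members, and DESeq2 called 0, 8, 20 and 5 genes and no member. Estimates were negative for 10 of 10 members in T cells and Macro_2 and for 9 of 10 in CAM_1 and CAM_2, while the median over all genes was between 0.03 and 0.05. In simulated data of this design, 40% (CAM_1) to 76% (T cells) of genes changed 4-fold were recovered. Of the calls in these data, 2.44% in CAM_1, 3.7% in CAM_2, 11.7% in Macro_2 and 10.6% in T cells were false. The estimates of B2m were smaller than 4-fold, so this recovery does not give the power for them.

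Leaving out brain at 24 h (replicate 2) changed the calls. Without it, B2m was lower at 24 h in T cells (-0.61 ± 0.07, adjusted p = 6.52e-05) and Macro_2 (-0.79 ± 0.17, adjusted p = 0.00170), and H2-T23 in Macro_2 (-0.94 ± 0.21, adjusted p = 0.00214), CAM_1 (-0.87 ± 0.23, adjusted p = 0.0318) and CAM_2 (-1.15 ± 0.30, adjusted p = 0.0320). B2m missed the threshold in CAM_1 (-0.67 ± 0.21, adjusted p = 0.0636) and CAM_2 (-0.85 ± 0.25, adjusted p = 0.0562), and H2-T23 in T cells (-0.69 ± 0.25, adjusted p = 0.250). The members called were thus 1 of 10 in T cells, 2 in Macro_2 and 1 each in CAM_1 and CAM_2, where the fit called 1.30%, 5.10%, 7.67% and 5.31% of all genes. The other 8 members were called in none of the 4 clusters. This fit rests on 6 libraries, 1 per tissue and time, and dura at 24 h was made with kit version 3 and control dura with version 2. Its SEs and p-values therefore reflect how far the 24 h change differs between tissues, and no spread between replicates. The same limit holds for its comparison of brain with meninges below.

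H2-T23 followed the same course in Macro_2 with fewer counts behind it: 178 CPM in control brain (11 UMIs), 50.5 and 63.9 CPM in the brain replicates at 24 h, 149 CPM in control pia, 95.7 CPM in pia at 24 h, 141 CPM in control dura and 70.7 CPM in dura at 24 h. All 4 values at 24 h lay below the 3 controls, again without a share of all genes to set beside this. H2-K1 had 1276 CPM in control brain and 613 and 1012 CPM in the brain replicates at 24 h in Macro_2, 933 CPM in control pia and 698 CPM in pia at 24 h, and 968 CPM in control dura and 826 CPM in dura at 24 h. Here brain replicate 2 lay above the controls of pia and dura, and the groups overlapped. S100a8, a granulocyte transcript, was also higher in T cells at 24 h in pia (28.0 against 0 CPM) and dura (147 against 69.0 CPM). In T cells of the brain it was at 0 CPM in control and in replicate 1 at 24 h, in sums of only 31 and 33 cells. In replicate 2 it was at 32.3 CPM. The part of granulocyte transcripts in the result was not tested. The mitochondrial share of UMIs moved with B2m in the longer list, in T cells from 2.29% in control to 2.01% at 24 h in brain, from 2.90% to 2.23% in pia and from 2.96% to 2.45% in dura. It was lower at 24 h in Macro_2, CAM_1 and CAM_2 of each tissue as well, and its part in the result was not tested.

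**Figure D4:**
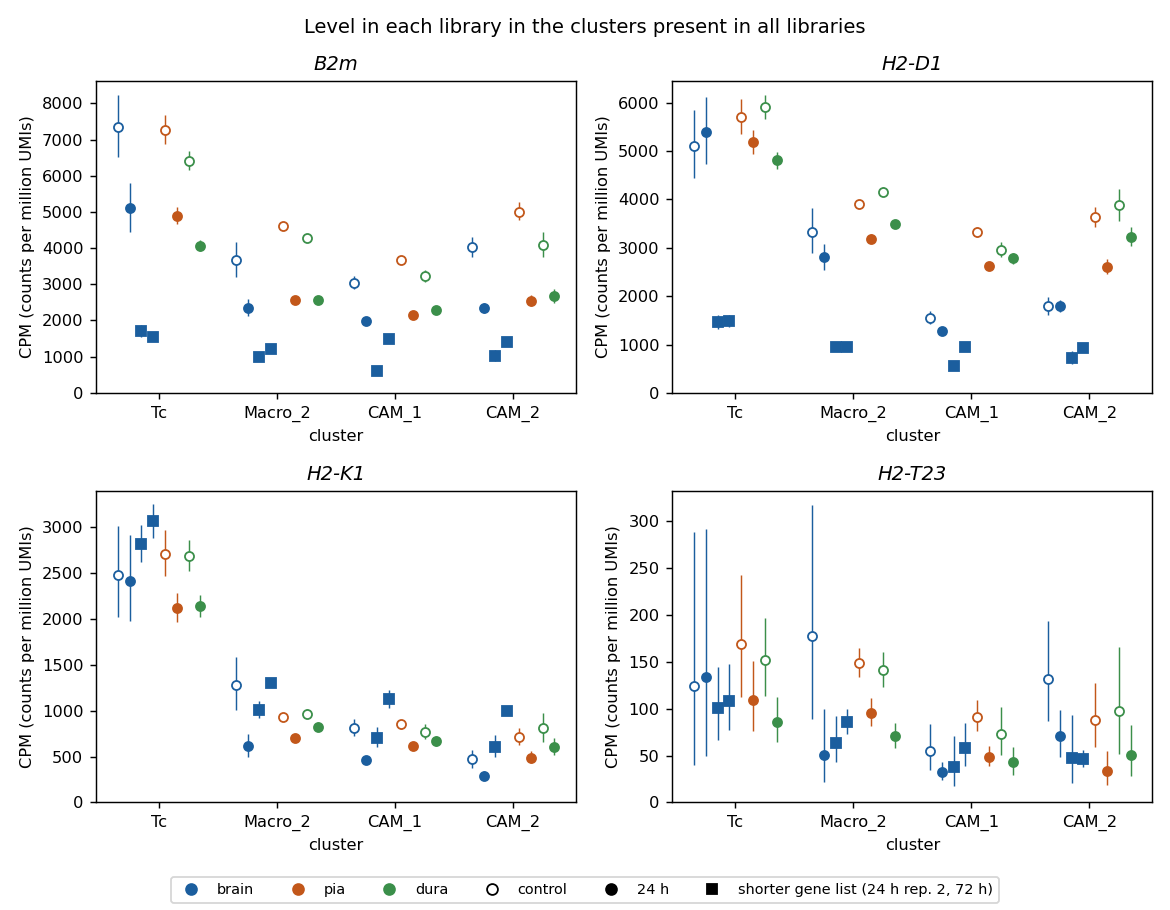
CPM of B2m, H2-D1, H2-K1 and H2-T23 in each library for the clusters with at least 30 cells in all 8 libraries, with exact Poisson 95% intervals for counting error (open symbols for control, filled for MCAO, squares for the libraries of the shorter gene list). In T cells the B2m values are 7343, 7274 and 6407 CPM in controls and 5097, 4899 and 4070.1 CPM in the 24 h libraries of the longer gene list, and the squares lie at 1705 and 1547 CPM.

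Clusters that were too small in some libraries for the fit were described in the 6 libraries of the longer gene list, as ratios of 24 h to control in the same tissue. This gave 35 pairs of cluster and tissue, 7 in brain, 14 in pia and 14 in dura, and the pairs of a tissue share their libraries. B2m lay below control in 34 of 35 pairs with a median log2 ratio of -0.65, and only mast cells of the dura lay above. H2-K1 was below control in 33 pairs (median -0.36) and Tapbp in 33 (-0.69). In brain H2-K1 was below control in 5 of 7 clusters with a median of only -0.06 (from -1.06 to 0.12). In pia and dura it was below in 14 of 14 each, with medians of -0.47 and -0.31. The brain medians of B2m and Tapbp were -0.60 and -0.31. So 3 of 10 members were below control in at least 33 of 35 pairs, against 1.11% of the 2985 genes. The cut of 33 is the count of H2-K1 and Tapbp themselves, so this share is a description and not a test. The median over all genes was below control in 16 of 35 pairs, with a median of 0.04.

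H2-T23 was below control in 31 of 35 pairs (median -0.78), Psmb9 in 30 (-0.54), H2-D1 in 27 (-0.24) and Psmb10 in 23 (-0.18). Of the 2985 genes, 86, 127, 357 and 730 were below in at least as many pairs as these members, in this order. H2-D1 and Psmb10 were thus less set apart from all genes than H2-T23 and Psmb9. The peptide transporter and Psmb8 were below control less often still: Tap1 in 19 pairs (-0.06), Tap2 in 18 (-0.01) and Psmb8 in 15 (0.11). Here 40.9%, 44.9% and 57.2% of all genes were below in at least as many. Tap1 differed between tissues, with a median of 0.43 in brain (7 clusters), 0.07 in pia (14) and -0.53 in dura (14), a difference that was not tested for these clusters. In all pairs of dura the 24 h library was made with kit version 3 and the control with version 2. The pairs of brain and pia were of version 2 alone, so tissue and kit cannot be told apart for dura. For H2-D1 the median was 0.04 in brain, -0.27 in pia and -0.25 in dura.

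**Figure D5:**
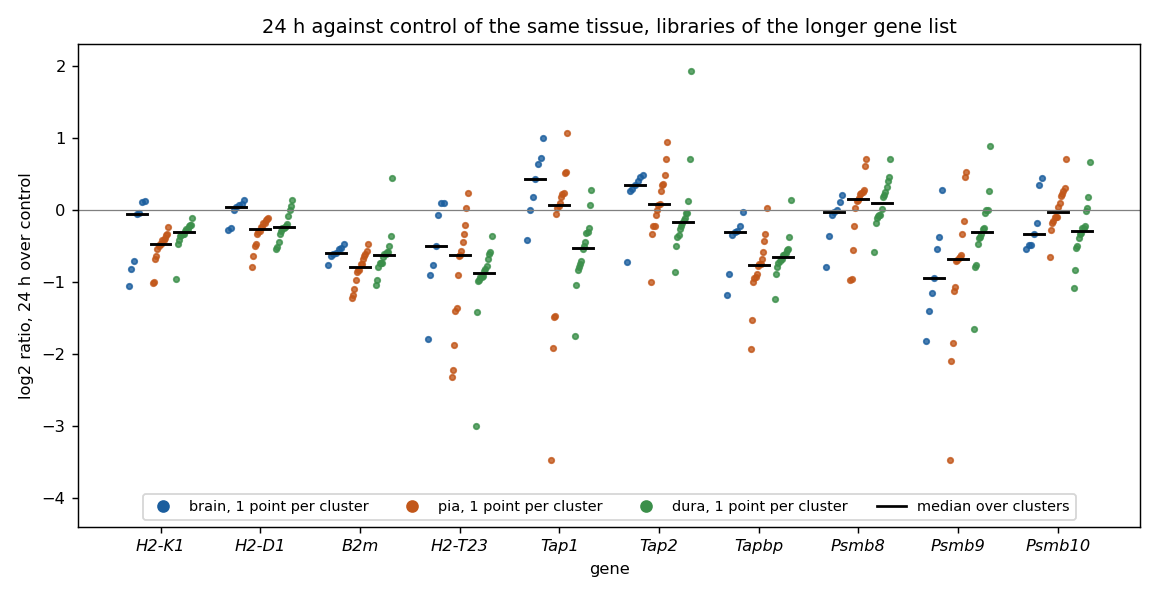
Log2 ratio of CPM at 24 h to control of the same tissue for each member, 1 point per cluster with at least 30 cells in both libraries, in the 6 libraries of the longer gene list, with the median over clusters as a bar. B2m points lie below 0 in 34 of 35 pairs, and those of Psmb8 in 15.

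Brain was then compared with the meninges in the same fits. Psmb9 in CAM_1 was at 41.9 CPM in control brain, 22 and 12.5 CPM in the brain replicates at 24 h, 107 CPM in control pia, 65.5 CPM in pia at 24 h, 94.9 CPM in control dura and 72.6 CPM in dura at 24 h. All 3 brain values lay below the 4 of the meninges, though the lowest came from 3 UMIs. H2-D1 in CAM_1 was at 1557 CPM in control brain, 1286 and 562 CPM in the brain replicates at 24 h, 3324 CPM in control pia, 2629.9 CPM in pia at 24 h, 2960.3 CPM in control dura and 2784 CPM in dura at 24 h, again without overlap. The share of all genes without overlap is not given here, and brain replicate 2 was low in H2-D1 in 10 of 10 clusters.

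Psmb9 was lower in CAM_1 of the brain (-1.96 ± 0.40 on the log2 scale, adjusted p = 0.0235, edgeR), and H2-D1 missed the threshold (-1.67 ± 0.47, adjusted p = 0.0623). That is 1 of 10 members where 9.45% of all genes were called. In CAM_2 no member was called where 5.66% of genes were, with Psmb9 at -1.72 ± 0.51 (adjusted p = 0.0768) and Psmb8 at -1.12 ± 0.36 (adjusted p = 0.0900). In Macro_2 and T cells no member was called either, where 0.303% and 0.467% of genes were, and the lowest adjusted p of a member was 0.319 and 0.582. At an unadjusted p under 0.05 the members were 3 in CAM_1, 4 in CAM_2, 1 in Macro_2 and 0 in T cells, and DESeq2 called 2 in CAM_1 and 0 in the other 3.

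Without brain at 24 h (replicate 2), 4 members were lower in CAM_1 of the brain, Psmb9 (-1.81 ± 0.28, adjusted p = 1.14e-04), H2-D1 (-1.35 ± 0.24, adjusted p = 0.000414), Psmb8 (-0.72 ± 0.22, adjusted p = 0.0158) and H2-T23 (-0.83 ± 0.25, adjusted p = 0.0168), where 37.7% of all genes were called. In CAM_2, H2-K1 (-0.94 ± 0.25, adjusted p = 0.00765), H2-D1 (-1.01 ± 0.27, adjusted p = 0.00968), Psmb8 (-0.98 ± 0.25, adjusted p = 0.00642) and Psmb9 (-1.56 ± 0.43, adjusted p = 0.0121) were lower, where 29.0% of genes were called. No member was called in Macro_2 (3.63% of genes) or T cells (1.91%). The call of Psmb9 in CAM_1 was lost when any 1 of the other 6 libraries was left out, with adjusted p between 0.0613 and 0.211.

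Brain CAM_1 and CAM_2 are the clusters that carried Tmem119. In CAM_2 it was at 3268 CPM in control brain and 1099.7 and 229.6 CPM in the brain replicates at 24 h, against 53.6 to 117 CPM in the meninges, and Lyz2 was at 1089, 493 and 4668 CPM against 18725 to 21698 CPM. Microglia had less H2-D1 than macrophages in every library, and the part of microglial transcripts in the lower levels of brain CAM was not tested. Scaling by library size alone moved the median of all genes between brain and meninges by 0.37 in CAM_1, 0.34 in Macro_2 and 0.18 in CAM_2 on the log2 scale. With it the genes called higher and lower in brain went from 306 and 406 to 539 and 277 in CAM_1, from 132 and 142 to 206 and 104 in CAM_2, and from 6 and 19 to 11 and 9 in Macro_2.

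Whether the 24 h change differed between brain and meninges was tested as an interaction. No member was called in CAM_1, CAM_2, Macro_2 or T cells, with a lowest adjusted p of 1.00, 1.00, 0.875 and 0.888, and no gene of any kind was called (0% of 8796, 6294, 9251 and 6020 genes, edgeR). At an unadjusted p under 0.05 the numbers were 140, 118, 279 and 185 genes and no member. For B2m the estimate of the difference was -0.78 ± 1.16 in CAM_1 and -0.40 ± 0.98 in T cells on the log2 scale, so differences of about 1 on this scale were not detectable with these libraries.

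The time course in the brain rests on 1 control library, 2 libraries at 24 h and 1 at 72 h and has no test. In microglia, H2-K1 stood at 681 CPM in control brain, 723 and 932 CPM at 24 h and 1239 CPM at 72 h. Tap1 stood at 18.2 CPM in control brain, 26.0 and 54.4 CPM at 24 h and 53.7 CPM at 72 h, so both genes were lowest in the control. B2m was instead highest in the control, with 2898 CPM in control brain, 1994 and 569.7 CPM at 24 h and 1279.7 CPM at 72 h. The second value at 24 h (replicate 2) and that of 72 h come from the shorter gene list. Across clusters, replicate 2 differed from replicate 1 by a median log2 ratio of 0.47 for H2-K1, 0.84 for Tap1 and -1.46 for B2m. Time and gene list can therefore not be told apart, except between control and replicate 1, where H2-K1 went from 681 to 723 CPM.

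Relative to control microglia, the log2 ratio of H2-K1 was 0.09 (replicate 1) and 0.45 (replicate 2) at 24 h and 0.87 at 72 h, and that of Tap1 was 0.52, 1.58 and 1.56. The immunoproteasome subunits were near or above control in replicate 1 (0.13 for Psmb8, -0.17 for Psmb9 and 0.28 for Psmb10) and below it in replicate 2 (-1.62, -1.51 and -1.0). At 72 h they stood at -0.86, -0.47 and -0.78. The median of the members at 24 h was 0.10 in replicate 1 and -0.65 in replicate 2, and the -0.61 of 72 h lay between them.

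Brain at 72 h shares its gene list with replicate 2 at 24 h, and these were compared in 15 clusters, although their kits differ. H2-K1 was higher at 72 h in 15 of 15 clusters with a median log2 ratio of 0.37, Psmb8 in 14 (0.40), Psmb9 in 14 (0.84), H2-D1 in 13 (0.12), H2-T23 in 13 (0.39), and B2m (0.45) and Psmb10 (0.28) in 12. Tap1 was higher in 8 and Tap2 in 7. No count over all genes is given here to set beside these, so a shift of the whole library cannot be told from one of the members. The 15 clusters share 1 pair of libraries, with medians of 1071.5 UMIs (24 h) and 2501.0 UMIs (72 h) per annotated cell. In microglia, B2m went from 569.7 to 1279.7 CPM (log2 ratio 1.17, 95% counting interval by normal approximation 1.07 to 1.27) and Psmb9 from 19.2 to 39.7 CPM (1.05, 0.50 to 1.59). In T cells the ratios were small, 0.12 (-0.01 to 0.25) for H2-K1 and -0.14 (-0.32 to 0.04) for B2m. With 1 library per time, time, kit and library cannot be told apart.

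Of 27 other genes of the pathway, 18 to 24 were tested per cluster. In the fit of all 7 libraries none was called at 24 h in any of the 4 clusters by edgeR. Without brain at 24 h (replicate 2), Irf1, an interferon-induced activator of class I genes, was lower in CAM_1 (-1.54 ± 0.23, adjusted p = 0.00151) and Macro_2 (-1.10 ± 0.22, adjusted p = 0.000406). Irf2 was lower in CAM_2 and the heavy chain H2-Q4 in Macro_2. Psmb6, the constitutive counterpart of Psmb9, was the only one called higher, in CAM_1 (0.85 ± 0.20, adjusted p = 0.0237), CAM_2 (1.01 ± 0.25, adjusted p = 0.0270) and Macro_2 (0.94 ± 0.21, adjusted p = 0.00188). In T cells none of 23 was called.

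Between brain and meninges, Fcgrt, a class I-like receptor for IgG, was lower in brain in CAM_1 (-3.56 ± 0.46, adjusted p = 0.00423) and CAM_2 (-3.26 ± 0.50, adjusted p = 0.00622), and Irf1 in CAM_1 (-1.86 ± 0.37, adjusted p = 0.0205). Those are 2 of 22 genes tested in CAM_1 and 1 of 19 in CAM_2, where 9.45% and 5.66% of all genes were called. The list was thus not called more often than all genes. None of 24 was called in Macro_2 or T cells, where 0.303% and 0.467% of all genes were. Without brain at 24 h (replicate 2), 8 of 22 were called in CAM_1 (5 lower, among them H2-Q7, H2-T22 and H2-M3), 3 of 18 in CAM_2, and 1 of 23 each in Macro_2 and T cells, where 37.7%, 29.0%, 3.63% and 1.91% of all genes were called. Fcgrt had its highest means in CAM_2 (577 CPM) and CAM_1 (512 CPM) and was lower in lymphoid cells than in macrophages in each library.

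Across clusters, the proteasome activator genes Psme1 and Psme2 had their highest means in dendritic cells, Psme1 in mDC1 (509.9 CPM) and Psme2 in mDC2 (543 CPM). The heavy chains H2-Q6, H2-Q7 and H2-T22 had their highest means in NK and T cells, with 629.7 CPM of H2-Q7 in NK cells and 248 CPM of H2-T22 in T cells, and were higher in lymphoid cells than in microglia in 8 of 8 libraries. The chaperones of the endoplasmic reticulum Calr, Canx and Pdia3, which also fold other proteins, were lower in lymphoid cells than in microglia in 8 of 8. Nlrc5, an activator of class I genes, was scarce, at 31.1 CPM in T cells and 27.7 CPM in NK cells. Ifng, the gene of interferon gamma, was highest in NK cells (187 CPM) and T cells (145 CPM).

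The likeness of patterns was described by Pearson's r of log2(CPM + 1) over sums of library and cluster, which share libraries and depth. Over 77 sums of the longer gene list, H2-K1 was most like H2-Q4 (r = 0.85), B2m (0.85) and H2-Q7 (0.83), and B2m most like H2-K1, AW112010 (0.77) and Tapbp (0.75). H2-D1 was most like Tpt1 (0.88), Rpl37a (0.84) and AW112010 (0.80), and the r of H2-T23 was 0.62 with Tap1 and 0.59 with Tapbp. Tap1 was most like Psme1 (0.73), Psmb9 (0.72) and Psmb8 (0.71), and Psmb8 most like Psme1 (0.86) and Psme2 (0.83). Psmb9 was most like Psmb8 (0.76), whereas Psmb10 was most like Prdx2 (0.87), and its r with Psmb9 was 0.44. Tap2 stood apart, with Cd82 (0.64) as its nearest gene and r = 0.46 with Tap1, and Tapbp was nearest to B2m (0.75).

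Over all 112 sums the order changed with the libraries that stand apart. The r of H2-K1 with B2m was then 0.34 and that of H2-D1 with B2m 0.88, against 0.85 and 0.74 in the longer gene list. The r of Psmb8 with Psmb9 was 0.79 and 0.76, and that of H2-T23 with Tap1 0.58 and 0.62, and so changed little between both sets of sums.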

How the data were processed

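scRNA-seq was made from 8 libraries of sorted leukocytes. The authors counted UMIs per gene and barcode with Cell Ranger 6.0 (genome build mm10, per the processing notes), and the deposited counts are not normalized. The cluster of each cell, a text column, is the authors' annotation after removal of doublets and of cells by genes and mitochondrial share, with SCTransform, Harmony and Louvain clustering. Control pia was grouped by its other labels, since its title says brain. Genes were joined by Ensembl identifier, since 597 identifiers carry another symbol in the other gene list. All value columns of samples were mapped.

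UMIs of annotated cells were summed per library and cluster or class, and CPM was taken over shared genes. Classes were lymphoid (Tc, NK, Bc, gdTc, ILC2), macrophage (CAM_1, CAM_2, Macro_1, Macro_2), microglia (Micro_1, Micro_2, Micro_3, stress_Micro), granulocyte, dendritic and SAMC. For ratios 0.5 UMIs were added. Intervals are exact Poisson 95% intervals and cover counting error only. Sums were tested by the quasi-likelihood test of edgeR 4.0.16 (TMM scaling after filterByExpr) in R 4.3.3, two-sided, with tissue and time as terms, and a gene was called at a Benjamini-Hochberg adjusted p under 0.05 over all genes tested. The study's test over single cells was not used, as cells are not replicates. DESeq2 1.42.0 was the other tool. In a self-test on simulated counts, 200 genes were given a 4-fold change, of which 40%, 52%, 75.5% and 76% were recovered at 24 h in CAM_1, CAM_2, Macro_2 and Tc, on 7537, 4837, 8245 and 4712 genes. Other steps used Python 3.11.15, numpy 2.4.6, pandas 2.3.3, scipy 1.17.1 and matplotlib 3.10.9, and GENCODE M21 gave positions.

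Alternatives were DESeq2, library size alone, no low-count filter, a fold of at least 2, each library left out, sums of at least 100 cells, CPM without mitochondrial and ribosomal protein genes and cells thinned to 1000 UMIs. Chosen after seeing the data were the libraries of the longer gene list alone (clusters, classes and subunit ratios) and medians without B2m and H2-D1. The cut of 33 of 35 pairs also came from the data. Named are the members, the other pathway genes where called or as the set of a role, and for each member the 3 genes of at least 50 CPM with the most similar pattern. Some genes that these rules select are not reported here. The members and lists were chosen with earlier results of these data known. In barcodes without a cluster, the summed CPM of the members was in no MCAO library above that of the control library of its tissue.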

Additional observations from a re-analysis of the deposited data

How the results depend on the processing

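The number of genes called depended on the tool and filter. At 24 h against control, DESeq2 called 20 genes in CAM_1, 5 in CAM_2 and 8 in Macro_2, and without the low-count filter 56, 50, 33 and 1 genes were called in CAM_1, CAM_2, Macro_2 and Tc. Between brain and meninges, DESeq2 called 1085 genes in CAM_1, 113 in Macro_2 and 39 in Tc, library size alone gave 34 in Tc, and no low-count filter gave 1306, 512, 385 and 153. Members called between brain and meninges in CAM_1 were 2 with DESeq2 and 2 without the filter, and in CAM_2 1 without the filter.

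With each library left out in turn, genes called at 24 h ranged from 0 to 594 in CAM_1, 0 to 240 in CAM_2, 0 to 396 in Macro_2 and 0 to 55 in Tc, and members called from 0 to 1, 0 to 1, 0 to 2 and 0 to 1. All of these highest values came without brain at 24 h (replicate 2). Between brain and meninges, genes called ranged from 48 to 2925 in CAM_1, 15 to 1310 in CAM_2, 0 to 1189 in Macro_2 and 0 to 81 in Tc. The lowest came without control brain, and the highest without brain at 24 h (replicate 2), except in Macro_2, where 1189 came without replicate 1. Members called ranged from 0 to 4 in CAM_1 and 0 to 4 in CAM_2, with 1 in CAM_2 (Psmb9, adjusted p = 0.0487, edgeR) without control dura. Irf1 at 24 h in CAM_2 changed sign without control pia or pia at 24 h (0.03 each, from -1.03 to 0.03 over libraries left out). The causes were not tested.

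Of 300 values of single genes recomputed in the fits, 260 kept direction and side of the threshold, 25 passed it and 13 no longer did. Of 840 ratios between classes, 838 moved by less than 1 SD; with cells thinned to 1000 UMIs the ratio of dendritic cells to macrophages went to 0.25 for H2-T23 and 0.15 for Tap2. All 99 medians of members moved by less than 1 SD. No paired analysis was possible because pia and dura have 1 library per condition and replicate numbers do not tie libraries across groups. Depth limits Psmb9, Tap1, Tap2 and H2-T23 most, which rest on few UMIs in small sums, such as 7 for Tap1 in CAM_1 of control brain.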
